A study of Mus musculus with 9 samples.

Results

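The 81 genes described here had lower transcript levels on arrays of mouse B cells after 1 h of antigen receptor crosslinking than on untreated arrays. They were chosen from the measured values. A named gene was a member when the mean of 1 h replicates 1 and 3 lay at least 0.8 below the mean of untreated replicates 1 and 3 on the scale of log2(intensity + 50), and both 1 h values lay below both untreated values. The brightest probe of each gene was used. The rule found 81 of 19057 named genes (0.425%). It found 0.729% of the 11104 named genes detected above noise on 3 or more arrays, where above noise means an intensity over about 6.44. All 81 members passed that filter, 73 of them on all 9 arrays, and the member detected on fewest arrays was above noise on 5. The mirrored rule for higher genes found 209 genes (1.88%).

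The cells were primary B cells from the spleens of C57BL/6 mice aged 8 weeks, and their RNA was hybridized to Illumina bead arrays. There were 3 arrays each of untreated cells and of cells treated with goat F(ab')2 anti-IgM for 1 h or 2 h, at 2.5 µg/ml. Binding of this antibody clusters the B cell receptor and starts its signalling. IL-4 at 5 ng/ml and CD40L at 200 ng/ml are also named in the protocol, with no statement of which arrays they apply to. The series description gives 3 h where the labels give 1 h and 2 h, and the labels were followed. Whether arrays of 1 label were separate mice or cultures is not stated, so p-values measure spread that may be technical.

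Resting B cells circulate in a quiescent state that transcription factors of the FOXO and Krüppel-like families help to maintain. Among the genes such cells express are brakes on phosphoinositide 3-kinase (PI3K) and mTOR signalling, a brake on glucose uptake, cyclin-dependent kinase inhibitors and receptors that guide migration. Antigen receptor signalling activates PI3K and Akt, and Akt phosphorylates FOXO proteins and keeps them out of the nucleus.

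The arrays labelled untreated replicate 2 and 2 h replicate 2 went against the other arrays of their labels. Myc, an early target of receptor signalling, had an intensity of 798 on untreated replicate 2, against 57.0 and 70.0 on the other untreated arrays. On 2 h replicate 2 it had 56.4, against 876 and 801 on the other 2 h arrays. On 1 h replicate 2 it had 583, on the same side as the 840.5 and 816 of the other 1 h arrays. Other genes set 1 h replicate 2 apart from those arrays. The immediate-early gene Egr1 had 4017 on it, against 10635 and 12904, and the B cell marker Cd22 had 282, against 1133 and 1240. The values of untreated replicate 2 and 2 h replicate 2 are as they would be if their labels had been exchanged, which was not tested. The deposited labels were kept. Many members below are therefore given array by array, and others only as a difference over replicates 1 and 3. In both forms the 3 arrays labelled replicate 2 are kept apart from the 4 arrays of the rule. Of 10 B cell markers, 7 were measured, and their summed intensity lay between 9793 (1 h replicate 2) and 18345 (untreated replicate 3). The receptor chain gene Cd79b was read at 2450 or more on every array, while the T cell gene Cd3e stayed at or below 11.9. The 11 T cell markers together summed to between 444 (2 h replicate 1) and 771 (untreated replicate 3). Natural killer cell markers, 7 of them measured, summed to between 737 (untreated replicate 1) and 1499 (2 h replicate 3). Erythroid markers summed to 8259 on untreated replicate 3, 8371 on 1 h replicate 3 and 8767 on 2 h replicate 1, against 351 to 1184 on the other 6 arrays. Neutrophil markers were also highest on these arrays, at 5539, 4351 and 3991, against 763 to 1627. Each label thus had 1 such array. The members' median log2 difference at 1 h was -0.90 between the erythroid-poor replicate 1 arrays and -1.03 between the erythroid-rich replicate 3 arrays, whose direction the rule fixes. The part of other cells in the members' values was not tested. None of the fixed cell type markers was a member (0). B cell markers summed to 16446 and 17474 on 1 h replicates 1 and 3, against 18135 and 18345 on untreated replicates 1 and 3. In such bulk RNA, fewer cells of a type and less RNA per cell cannot be told apart.

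Promoters of 71 members were available, as RefSeq windows of GRCm38.p6 that run from 250 bases before to 50 bases after an annotated start. The stretches printed here belong to members with large differences or with a letter match to an element known for a factor of resting or stimulated lymphocytes. Both strands were searched, and in each stretch capitals mark only the motifs named for that gene; matches to other motifs stay in lower case. In Klf2 they mark an element bound by MEF2 factors, CTAAA followed directly by TTTAG, and the GC box GGGCGG. In Txnip they mark a paired element known for carbohydrate response factors (CACGAG, 5 bases, CACGAG), the FOXO element TGTTTAC (here on the opposite strand) and the CCAAT box. In Socs3 they mark the STAT element TTCNNNGAA and a GC box, and in the 3 short stretches the FOXO element. The stretches of Klf2, Txnip and Socs3 end at the base before the start.
Klf2 (chr8:72318812-72319061, plus strand): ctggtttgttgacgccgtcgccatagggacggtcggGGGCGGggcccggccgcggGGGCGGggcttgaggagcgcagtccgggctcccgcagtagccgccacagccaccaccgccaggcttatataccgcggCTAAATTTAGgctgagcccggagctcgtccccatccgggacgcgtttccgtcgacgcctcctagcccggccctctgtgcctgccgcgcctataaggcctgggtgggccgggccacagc
Txnip (chr3:96557707-96557956, plus strand): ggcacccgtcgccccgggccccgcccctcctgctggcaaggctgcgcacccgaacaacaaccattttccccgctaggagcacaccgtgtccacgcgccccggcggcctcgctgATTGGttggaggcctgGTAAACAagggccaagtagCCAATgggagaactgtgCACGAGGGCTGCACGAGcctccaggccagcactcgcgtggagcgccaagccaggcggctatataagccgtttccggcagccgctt
Socs3 (chr11:117969367-117969616, minus strand): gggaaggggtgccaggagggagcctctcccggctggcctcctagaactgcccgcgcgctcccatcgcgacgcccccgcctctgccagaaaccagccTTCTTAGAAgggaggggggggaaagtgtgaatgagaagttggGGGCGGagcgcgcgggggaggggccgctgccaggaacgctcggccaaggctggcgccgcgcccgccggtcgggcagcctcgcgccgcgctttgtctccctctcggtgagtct
Bbc3 (chr7:16310083-16310111, plus strand): tctggcgggttTGTTTACaaacaatgggg
Marchf1 (chr8:65618448-65618476, plus strand): caagtcagcgcTGTTTACacccgcagccg
Sesn1 (chr10:41810585-41810613, plus strand): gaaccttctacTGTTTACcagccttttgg

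The paired carbohydrate response element occurred in 1 of the 71 member windows, that of Txnip, and in 1 of the 9008 windows of all named genes above noise (0.0111%), which is the same gene. The MEF2 element occurred in 1 member, Klf2, and in 6 of all genes (0.0666%). The FOXO element TGTTTAC was in 4 member windows (5.63%), those of Bbc3, Marchf1, Sesn1 and Txnip, against 3.34% of all. TTCNNNGAA was in 8 members (11.3% against 8.68%). The NF-kappaB element GGAATTTCC was in Dusp6 and Il16 (2.82% against 0.389%). The E-box CACGTG was in 7 members (9.86% against 11.5%). The cyclic AMP response element TGACGTCA (4.23% against 3.59%) and the AP-1 element TGANTCA (4.23% against 6.36%) were each in 3. The CCAAT box (39.4% against 43.3%) and the GC box (63.4% against 64.7%) had shares near those of all genes. Differences between the shares were not tested, and for most motifs they rest on few members. No motif searched contains another, and a match describes letters in these windows and not a bound site.

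**Figure D1:**
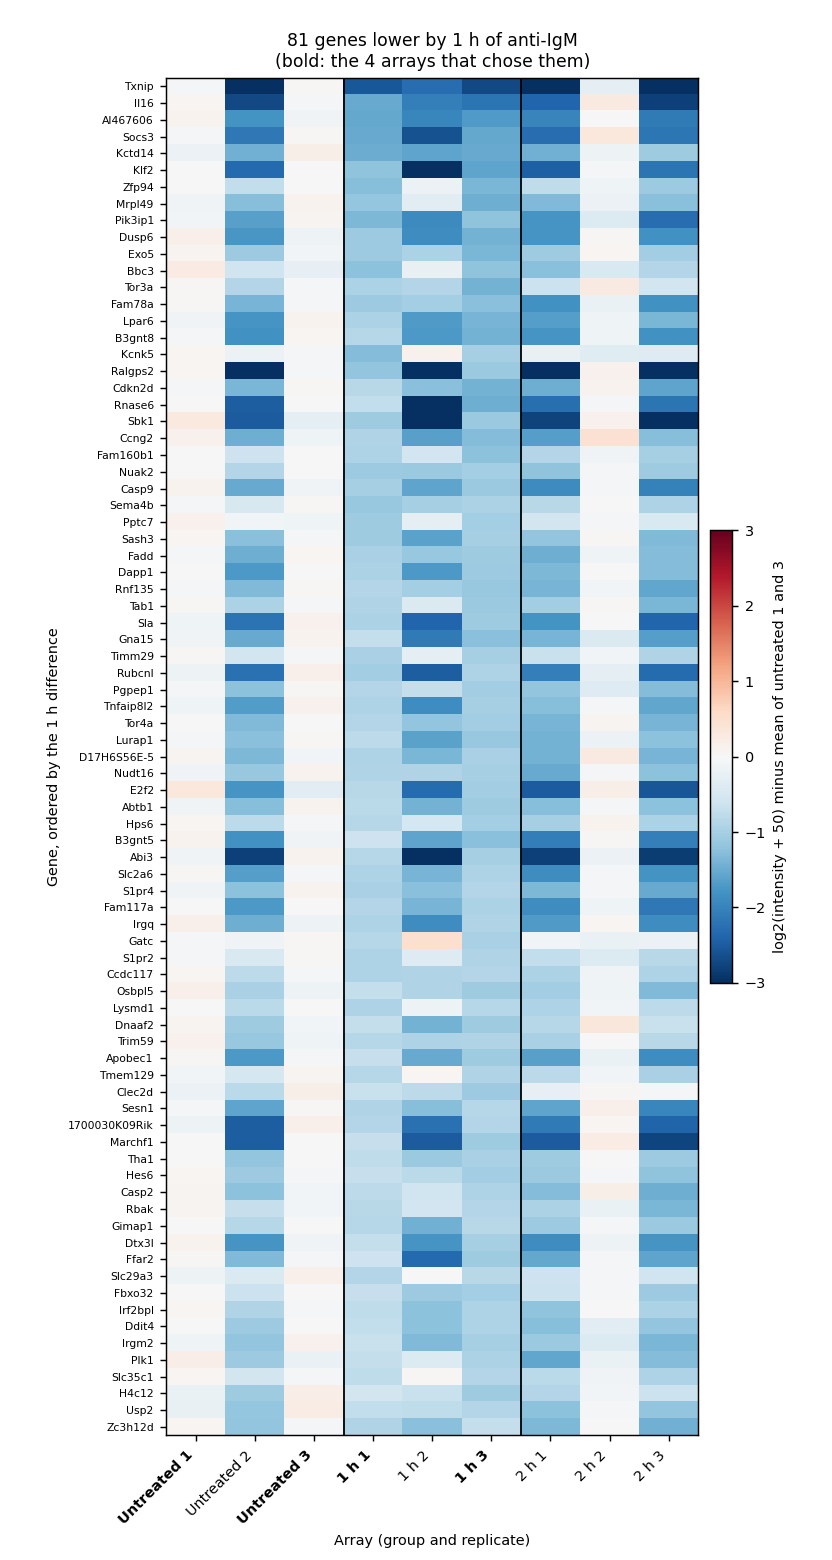
Heat map of the 81 genes (rows, ordered by their 1 h difference) on the 9 arrays (columns). Colour gives log2(intensity + 50) minus the mean of untreated replicates 1 and 3, with values past 3 in either direction shown at the end of the scale. The 4 arrays in bold chose the genes. Untreated replicate 2 and 2 h replicates 1 and 3 are mostly blue, and 2 h replicate 2 is nearly white.

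Of 17 measured genes on a list of FOXO factors and quiescence genes, 4 were members: Txnip, Pik3ip1, Sesn1 and Ccng2. Txnip, which encodes an arrestin-like protein that restrains glucose uptake, had the largest 1 h difference of all members. Its intensities, in the order of replicates 1, 2 and 3, were 2180.1, 218 and 2255 in untreated cells, 339, 416 and 298 after 1 h, and 225, 1807 and 179 after 2 h. Untreated replicates 1 and 3 and 2 h replicate 2 were the highest, at 1807 to 2255, and the other 6 arrays lay between 179 and 416, so the groups as labelled overlapped. Its 1 h mean over replicates 1 and 3 was 6.16-fold lower than the untreated mean (-2.62 in log2), and its 2 h mean over the same replicate numbers was 9.04-fold lower (-3.18). All folds are on the log2(intensity + 50) scale, which understates the change of dim genes. A second Txnip probe gave a 1 h difference of -2.49.

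Pik3ip1, which encodes a transmembrane inhibitor of PI3K, was read at 290.3, 67.2 and 332 in untreated cells, 91.8, 45.2 and 106 after 1 h, and 56.3, 219 and 23.9 after 2 h. The same 3 arrays were the highest. Sesn1, a sestrin gene whose product restrains mTORC1, had 647, 188 and 673 in untreated cells, 331, 242 and 342 after 1 h, and 188, 744 and 133 after 2 h. The cyclin G2 gene Ccng2, linked to cell cycle arrest, gave 443, 114 and 363 in untreated cells, 193, 94.9 and 134 after 1 h, and 93.1, 569 and 135 after 2 h. For Sesn1 and Ccng2 the array labelled 2 h replicate 2 was the highest of the 9. Over all 17 listed genes the median 1 h difference was -0.33, with 11 below 0 and 1 higher by the mirrored rule, against a median of -0.02 over all named genes above noise. Ddit4, which encodes a stress-induced mTORC1 inhibitor, was the only member among 13 genes of a glucocorticoid, mTOR and clock list (3 higher by the mirrored rule), at 604, 259.7 and 624 in untreated cells, 351, 235 and 297 after 1 h, and 222, 479 and 243 after 2 h.

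Klf2 was the only member among 7 measured Krüppel-like factors. Its protein keeps lymphocytes quiescent and controls their migration. On the arrays of the rule it was read at 841 and 862 untreated and at 340.0 and 249 after 1 h. Outside the rule it had 129 on untreated replicate 2, 31.0 on 1 h replicate 2, 115 and 146 on 2 h replicates 1 and 3, and 818 on 2 h replicate 2. The lowest of the 9 values was thus on 1 h replicate 2, and untreated replicate 2 was as low as the 2 h replicates 1 and 3. The 1 h difference was -1.40 (2.64-fold lower) and the 2 h difference over replicates 1 and 3 was -2.32 (5.01-fold). Of these 7, Klf2 included, 5 had a difference above 0 at 1 h, 1 was higher by the mirrored rule, and the median was 0.22.

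Signalling inhibitors were mixed. Of 27 measured feedback inhibitors, 2 were members, 8 were higher by the mirrored rule, and the median was 0.21. Socs3, which encodes a feedback inhibitor of cytokine receptors that signal through JAK and STAT, had 330.0, 38.9 and 353 in untreated cells, 87.9, 14.3 and 85.9 after 1 h, and 30.8, 439 and 36.9 after 2 h. Its 3 highest arrays were untreated replicates 1 and 3 and 2 h replicate 2, all at or above 330.0. Dusp6, which encodes a cytoplasmic phosphatase of ERK, was read at 1327, 320.1 and 1075 in untreated cells, 534, 294 and 414 after 1 h, and 313, 1224 and 303 after 2 h. A second Dusp6 probe gave -0.81. Dapp1, which encodes a B cell adaptor that binds PI3K lipid products, was the only member among 28 proximal receptor signalling genes, with a 1 h difference of -1.02. Adaptor genes outside these lists were Sla, encoding a Src-like adaptor that dampens antigen receptor signalling (2 h difference -2.08), and Tnfaip8l2, encoding an inhibitor of immune receptor signalling (1 h difference -0.96). Sash3, encoding a lymphocyte adaptor, was among the brightest members, at 2492, 964 and 2259 in untreated cells, 1111, 745 and 1174 after 1 h, and 1023, 2423 and 909.7 after 2 h.

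**Figure D2:**
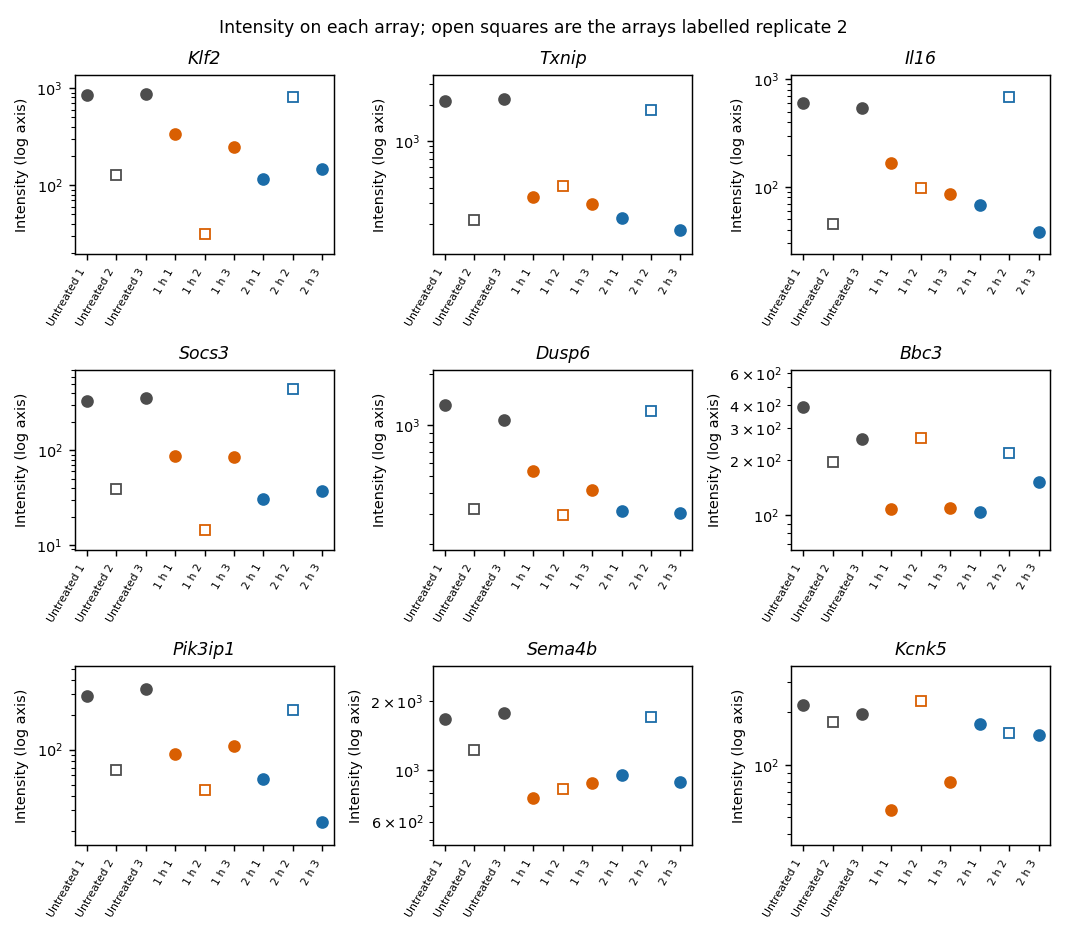
Intensity (log axis) of 9 members on each of the 9 arrays, with untreated arrays in grey, 1 h in orange and 2 h in blue. Open squares are the arrays labelled replicate 2. For Klf2, Txnip, Il16, Socs3, Dusp6 and Pik3ip1 the squares of untreated and 2 h cells stand where the filled points of the other label stand; Sema4b is low on all 3 arrays at 1 h, and Kcnk5 is low on 2 of them.

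Genes of the cell death machinery went both ways. Of 17 measured BCL2 family and caspase genes, 3 were members and 3 were higher by the mirrored rule. On this list 9 were below 0 and 8 above 0 at 1 h, and the median was -0.04. At 2 h, over replicates 1 and 3, the list median was 0.17. Bbc3, which encodes the BH3-only protein PUMA, had 388, 194 and 260.4 in untreated cells, 108, 266 and 109.7 after 1 h, and 104, 219 and 151 after 2 h. Its 1 h replicate 2 value lay above one of the untreated arrays of the rule. Casp9, the initiator caspase of the mitochondrial pathway, was read at 489, 126 and 414 in untreated cells, 202, 117 and 180.1 after 1 h, and 85.8, 437 and 71.8 after 2 h. Casp2, another caspase gene, was brighter, with 1605, 620.0 and 1435 in untreated cells, 855, 983 and 773 after 1 h, and 589, 1722 and 515 after 2 h. Fadd, the adaptor gene of death receptors, was not on the list and had a 1 h difference of -1.02, with -1.11, -0.97 and -0.30 on its other probes, the last of them above noise on 6 arrays.

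Receptors for lipids that guide migration supplied 3 members of 22 measured homing and G protein coupled receptor genes. On this list 1 gene was higher by the mirrored rule, 13 were below 0 and 9 above 0 at 1 h, and the median was -0.16. Lpar6, a lysophosphatidic acid receptor gene, was read at 301, 61.7 and 360.2 in untreated cells, 147, 66.3 and 94.4 after 1 h, and 71.2, 297 and 96.6 after 2 h. S1pr4, a sphingosine 1-phosphate receptor gene, was dimmer, at 98.0, 17.9 and 119.7 in untreated cells, 30.8, 16.6 and 36.7 after 1 h, and 12.8, 103 and 5.99 after 2 h. S1pr2, whose product confines B cells to follicle centres, had 166, 111 and 178 in untreated cells, 67.6, 121 and 68.8 after 1 h, and 83.1, 118 and 74.9 after 2 h. For S1pr2 the untreated arrays ranged from 111 to 178 and the 1 h arrays from 67.6 to 121, so they overlapped. The short-chain fatty acid receptor gene Ffar2 (-0.85) and the G alpha subunit gene Gna15 (-0.98) were members outside the list. Secreted and surface proteins included Il16, the precursor gene of a CD4-binding cytokine, at 596, 45.4 and 541 in untreated cells, 165, 98.4 and 86.1 after 1 h, and 68.2, 691 and 38.0 after 2 h. Sema4b, a semaphorin gene, was read at 1678, 1227 and 1779 in untreated cells, 758, 835 and 878 after 1 h, and 954, 1701 and 893 after 2 h. Its 1 h arrays, at 758 to 878, all lay below the untreated arrays, at 1227 to 1779. A second, much dimmer Sema4b probe, above noise on all 9 arrays, gave a 1 h difference of -0.04. It read 41.3, 53.1 and 37.4 in untreated cells and 22.8, 25.6 and 53.7 after 1 h, so these arrays overlapped.

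Among cell cycle genes, 2 of 17 G1 regulators were members, Ccng2 and Cdkn2d, and 2 were higher by the mirrored rule, with a list median of -0.02. Cdkn2d encodes an INK4 inhibitor of cyclin-dependent kinases and was dim, with 109.5 and 119.8 on untreated replicates 1 and 3 and 42.2 and 11.8 on the 1 h pair. E2f2, a transcription factor gene of the cell cycle, gave 795, 150.3 and 500.2 in untreated cells, 332, 86.7 and 281 after 1 h, and 71.7, 723 and 66.0 after 2 h. A second E2f2 probe had -0.78 at 1 h and -2.09 at 2 h over replicates 1 and 3. Plk1, encoding a mitotic kinase, had a 1 h difference of -0.83. Of 207 ubiquitin ligase and protease genes listed by symbol, 4 were members (Fbxo32, Rnf135, Trim59 and Usp2) and 2 were higher by the mirrored rule. Marchf1, whose product marks MHC class II and CD86 for degradation, was outside that list and had 301, 12.5 and 290.1 in untreated cells, 164, 11.3 and 116 after 1 h, and 11.1, 351 and 1.20 after 2 h. Its 2 h replicate 3 value was not above noise. Metabolic and transport members included the sugar transporter family gene Slc2a6, at 2889, 861 and 2765 in untreated cells, 1471, 1041 and 1454 after 1 h, and 743, 2748 and 782 after 2 h. Zc3h12d, encoding an RNA-binding protein of the regnase family, had 2629, 1077 and 2426 in untreated cells, 1334, 1023 and 1529 after 1 h, and 961, 2530.4 and 903 after 2 h. Genes of mitochondrial proteins were Mrpl49, Gatc, Timm29 and Pptc7.

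Members described in this paragraph belong to no list. AI467606, a gene with no role given here, was read at 1101, 261 and 955 in untreated cells, 321, 229 and 282 after 1 h, and 223, 1042 and 198 after 2 h. It followed the pattern of Txnip, with untreated replicates 1 and 3 and 2 h replicate 2 far above the other arrays. Glycosylation enzyme genes were B3gnt5 (1 h difference -0.93) and B3gnt8 (-1.15), and Apobec1 encodes a cytidine deaminase of RNA (-0.88). Irgm2 (-0.83) and Irgq (-0.92) encode immunity-related GTPases, Dtx3l a ubiquitin ligase (-0.85), Tab1 a partner of the kinase TAK1 (-1.01) and Rubcnl a regulator of autophagy (-0.98). Exo5, a nuclease gene, had -1.24, Fam78a -1.18 and Fam160b1 -1.07. Pgpep1, Tor4a, Lurap1, D17H6S56E-5, Nudt16, Abtb1, Hps6, Fam117a, Osbpl5, Tha1, Rbak and Irf2bpl lay between -0.96 and -0.84.

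Several groups known in resting or stimulated B cells held 0 members. These were 18 coreceptor and Fc receptor genes, 25 B lineage transcription factors, 13 Btg, Tob and mRNA decay genes, 11 MHC class II genes, 17 interferon response genes, 27 Toll-like and cytokine receptor genes, 15 TGF-beta and SMAD genes, 16 ribosome biogenesis genes and 33 chromatin enzymes. Since 0.729% of all named genes above noise were members, lists of this size hold few or none at that share. A count of 0 thus does not show that a list was unchanged. At 1 h, 14 coreceptor and Fc receptor genes were below 0 and 4 above (median -0.17). For Toll-like and cytokine receptor genes these counts were 18 and 9 (-0.24), and for Btg, Tob and mRNA decay genes 3 and 10 (0.19). The interferon list did not hold Irgm2 or Dtx3l. Of 22 immediate-early genes, 0 were members and 17 were higher by the mirrored rule. Single members came from other lists: Hes6 from 12 Notch genes, Gimap1 from 7 GIMAP GTPases, Zfp94 from 263 zinc finger genes, H4c12 from 63 histone genes, and Slc29a3, Slc2a6 and Slc35c1 from 202 solute carriers. Copies of histone genes are nearly identical, so the probe of H4c12 may not be specific to it.

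Members just inside the threshold were Zc3h12d (-0.80), Usp2 (-0.80) and H4c12 (-0.82). The nearest genes outside it were Ifnlr1 (-0.80), Ormdl3 (-0.80) and Tspyl3 (-0.79). The number of members depended on the 4 arrays and on the scale: it was 136 without 1 h replicate 1 and between 70 and 136 when any 1 of the 4 was left out. With an offset of 16 in place of 50 there were 251 genes, including all 81, and with an offset of 100 there were 48, all of them among the 81. When the probes of a gene were averaged, 47 genes passed, of which 46 were members.

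Other probes of the same genes were not used by the rule. Beyond the brightest, 29 probes of 24 members were above noise on all 9 arrays, and 26 of these were lower at 1 h over replicates 1 and 3, with a median of -0.56, where 54.7% of all named genes above noise were lower. Of the 29, 6 were at least 0.8 lower, a share that was not counted over such probes of all genes. The smallest falls were those of Sema4b (-0.04), Rnf135 (-0.14), Mrpl49 (-0.25 and -0.26), Casp2 (-0.27), Tab1 (-0.31) and Gimap1 (-0.37). All 29 probes were read on the same arrays that chose the genes. The 3 that were not lower all belong to Ralgps2, a gene for an exchange factor of Ral GTPases. Its brightest probe read 1281, 110.3 and 1159.8 in untreated cells, 512, 75.7 and 539 after 1 h, and 79.2, 1331 and 60.8 after 2 h. The second probe read 462, 126 and 466 in untreated cells, 516, 51.1 and 469 after 1 h, and 121, 553 and 104 after 2 h. Differences at 1 h were -1.14 for the brightest probe and 0.08, 0.07 and 0.09 for the second to the fourth, so the probes disagreed at 1 h. At 2 h, over replicates 1 and 3, all 4 were lower, by -3.41 for the brightest and -1.66, -2.36 and -1.29 for the others.

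**Figure D3:**
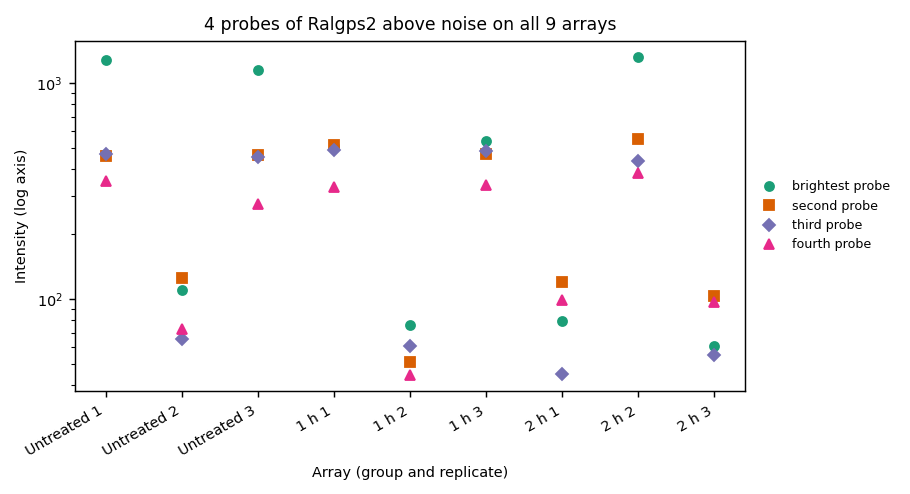
Intensity (log axis) of the 4 Ralgps2 probes above noise on all 9 arrays. On 1 h replicates 1 and 3 the brightest probe (circles) lies at 512 and 539, below its untreated values of 1281 and 1159.8, while the other probes stay close to their untreated values; all 4 are low on untreated replicate 2, 1 h replicate 2 and 2 h replicates 1 and 3.

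The arrays at 2 h were not used to choose the genes, but the untreated arrays were, so the 2 h differences are a description. On 2 h replicates 1 and 3, 71 of the 81 members lay at least 0.8 below untreated replicates 1 and 3 with no overlap, against 6.82% of all named genes above noise. The median difference was -1.37, against -0.02 over all. Every member read 58.9 or more on untreated replicates 1 and 3. Genes near noise can hardly fall by 0.8 on this scale, which lowers such shares over all genes here and below. Exceptions were Tor3a, Kcnk5, Pptc7, Timm29, Gatc, S1pr2, Dnaaf2, Clec2d, Slc29a3 and H4c12. From 1 h to 2 h, over replicates 1 and 3, 52 members were lower on both arrays (32.9% of all genes), 12 were higher on both (28.2%), and 18 were lower by at least 0.8 with no overlap (3.56%). The median step was -0.40, against 0.13 when all 9 arrays were fitted by their labels and -0.31 when 2 h replicate 2 alone was left out.

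Members with the largest further step down were Ralgps2 (-2.27), the kinase gene Sbk1 (-1.91), Abi3, encoding an adaptor of actin regulation (-1.90), Marchf1 (-1.75), E2f2 (-1.58) and 1700030K09Rik (-1.38). Sbk1 was read at 2935, 386 and 1958 in untreated cells, 1121, 231 and 1076 after 1 h, and 309.8, 2641 and 210.0 after 2 h. Abi3 had 722, 70.0 and 853 in untreated cells, 412, 44.8 and 367 after 1 h, and 69.1, 695 and 66.7 after 2 h. Both had an order of untreated above 1 h above 2 h on the replicate 1 and 3 arrays, with no overlap between neighbours. Members that stood higher again at 2 h were the potassium channel gene Kcnk5 (0.84), Gatc, encoding a subunit of the mitochondrial glutamyl-tRNA amidotransferase (0.78), Clec2d, encoding a ligand of a natural killer cell receptor (0.74), the torsin gene Tor3a (0.58), the mitochondrial phosphatase gene Pptc7 (0.53) and the zinc finger gene Zfp94 (0.40). Kcnk5 was read at 219.7, 177 and 197 in untreated cells, 55.4, 232 and 79.9 after 1 h, and 171, 152 and 149 after 2 h. Clec2d gave 1517, 967 and 1976 in untreated cells, 1071, 982 and 787 after 1 h, and 1451, 1781 and 1682 after 2 h. For both genes 1 h replicates 1 and 3 were below every 2 h array, whereas 1 h replicate 2 of Kcnk5 was the highest of the 9 arrays.

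**Figure D4:**
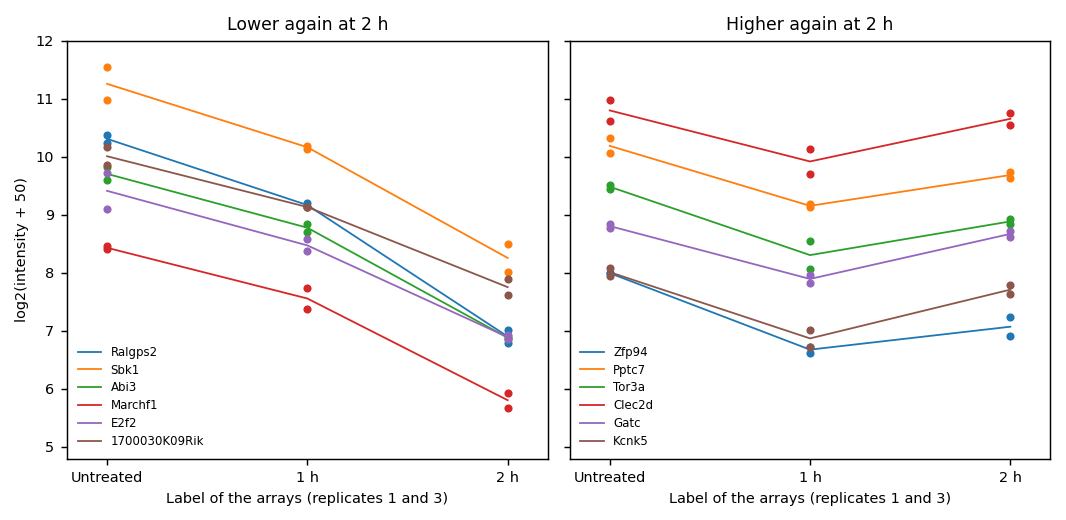
log2(intensity + 50) of 12 members on untreated, 1 h and 2 h replicates 1 and 3 (points), with lines through the means. The 6 genes with the largest further step down lose between 1.38 and 2.27 from 1 h to 2 h, and the 6 with the largest step up gain between 0.40 and 0.84.

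Untreated replicate 2, which had no part in the choice, lay at least 0.8 below untreated replicates 1 and 3 for 65 of the 81 members, against 5.58% of all genes. It was below both of them for 80 members (44.6% of all), the exception being Pptc7. On 1 h replicate 2, 59 members were at least 0.8 below untreated replicates 1 and 3 (8.79% of all), and 75 were below both (43.6%), with Bbc3, Kcnk5, Gatc, Tmem129, Slc29a3 and Slc35c1 as exceptions. On 2 h replicate 2 the count at least 0.8 below was 0 of 81 (0.117%), and the median difference was -0.05. That array stood at least 0.8 above the other 2 h arrays for 69 members (6.71% of all). For 72 members, untreated replicates 1 and 3 and 2 h replicate 2 were above all the other 6 arrays, a pattern of 11.2% of all genes. The rule set untreated replicates 1 and 3 above 1 h replicates 1 and 3 for every member. This order of the arrays, and the counts against untreated replicates 1 and 3, are therefore descriptions.

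**Figure D5:**
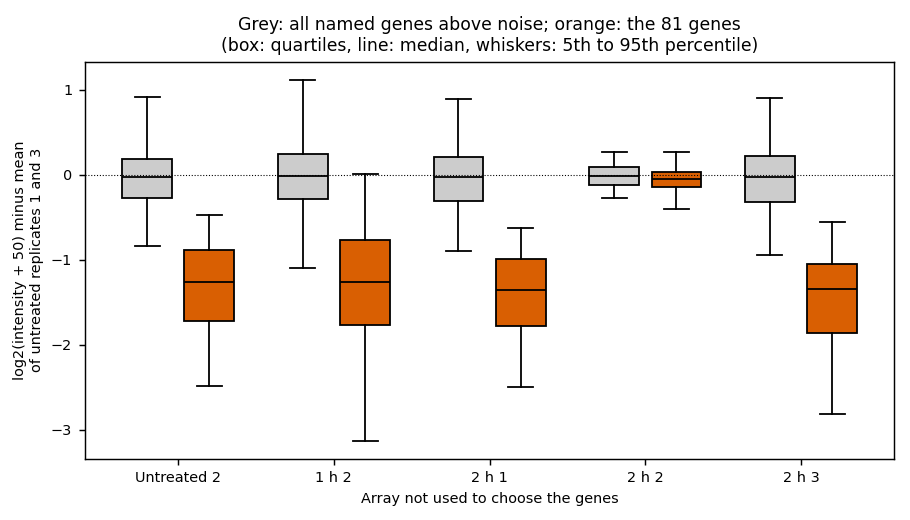
log2(intensity + 50) on each array that did not choose the genes, minus the mean of untreated replicates 1 and 3, for all named genes above noise (grey) and for the 81 members (orange). Boxes show quartiles and medians, and whiskers the 5th to 95th percentile. Medians of the members were -1.26 on untreated replicate 2, -1.26 on 1 h replicate 2, -1.35 and -1.34 on 2 h replicates 1 and 3, and -0.05 on 2 h replicate 2.

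The only comparison of 1 h with untreated cells on arrays outside the rule sets 1 h replicate 2 against untreated replicate 2, with no replicate check. Klf2 (-1.14) and Ffar2 (-1.02) were at least 0.8 lower there, which is 2 of 81 members (2.47%) against 2.64% of all genes. Mrpl49, a mitochondrial ribosomal protein gene, was at least 0.8 higher (0.96), which is 1 member against 2.08% of all. Over the 81 members, 37 were lower and the median was 0.06, against 0.01 over all genes, so the shares did not stand apart from the background. Untreated replicate 2 carried Myc at the level of stimulated arrays, so this comparison may not be one of 1 h with untreated cells. Rnase6 (-0.64), Sbk1 (-0.64), Gna15 (-0.61) and Gimap1 (-0.59) had the next lowest values. Txnip (0.80, just under the threshold), Plk1 (0.69), Lysmd1 (0.67), Il16 (0.64) and Casp2 (0.62) had the highest after Mrpl49.

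Compared with the other arrays of its own label, 1 h replicate 2 was at least 0.8 lower for 16 members (19.8%, against 7.02% of all genes) and at least 0.8 higher for 8 (9.88%, against 7.47%). Those 8 were Zfp94, Mrpl49, Bbc3, Kcnk5, Gatc, Tmem129, Slc29a3 and Slc35c1. All 3 arrays at 1 h lay below all 3 untreated arrays for 6 members (7.41%, against 2.27% of all): Kctd14, Nuak2, Sema4b, Pptc7, Ccdc117 and Fbxo32. The rule fixed the order of replicates 1 and 3 for every member, so the share over all genes is no fair measure for this count. Nuak2, encoding a kinase related to AMPK, was read at 371, 178 and 364 in untreated cells, 146, 143 and 154 after 1 h, and 131, 351 and 149 after 2 h. Fbxo32, encoding a ubiquitin ligase subunit known as a FOXO target in muscle, was dim, with 75.8, 29.4 and 72.8 in untreated cells, 27.4, 8.06 and 11.7 after 1 h, and 29.5, 70.6 and 8.54 after 2 h. At 2 h, 1 member, Kcnk5, had all 3 arrays below all 3 untreated arrays (1.23%, against 4.66%).

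When all 9 arrays were fitted by their labels, limma called 0 of 14640 features (0%) in each of the 3 comparisons, at a Benjamini-Hochberg adjusted p under 0.05. In this fit the untreated and 2 h groups each hold an array that goes against its label. Unadjusted p-values under 0.05 were found for 9, 1 and 2 members (1 h, 2 h and 2 h against 1 h), out of 190, 727 and 1001 features. The 1 h values only describe the genes, since the rule used that contrast. Sema4b had -0.87 ± 0.24 (SE, 3 arrays per group) and Txnip -1.48 ± 0.99. At 2 h against untreated, Txnip had -1.19 ± 0.99, Klf2 -0.79 ± 0.91 and Ralgps2 -1.24 ± 1.19, each with an adjusted p of 0.908 by limma. The 2 h value with the unadjusted p under 0.05 was that of S1pr2 (-0.50 ± 0.20, limma adjusted p = 0.908). Between 1 h and 2 h those of Clec2d (0.77 ± 0.24, limma adjusted p = 0.557) and Tor3a (0.77 ± 0.32, limma adjusted p = 0.713) passed it. A p that misses the threshold does not show that the levels were alike, since the standard errors of Txnip and Ralgps2 were close to their differences in size.

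A second fit used only the 5 arrays that the rule did not use, in which the single untreated and 1 h arrays are assumed to vary like the 3 arrays at 2 h. It called 0 of 14640 features (0%) in each of the 3 comparisons. Against untreated replicate 2, the median member was 0.35 higher at 2 h, and 12 of 81 were lower. Clec2d was 0.73 ± 0.19 higher at 2 h than untreated (limma adjusted p = 0.998). From 1 h to 2 h, Clec2d had 0.70 ± 0.19 (limma adjusted p = 0.312), Gatc -0.63 ± 0.16 (0.286) and Kcnk5 -0.44 ± 0.16 (0.419). The signs for Gatc and Kcnk5 were opposite to those over replicates 1 and 3, and none of these values passed the threshold.

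Without the 3 arrays labelled replicate 2, a choice made from the same values, limma called all 81 members in the 1 h comparison (7.33% of features called), 78 in the 2 h comparison (34.8%) and 45 for 2 h against 1 h (25.7%). Leaving out arrays by their values makes the remaining spread smaller, and the 1 h contrast chose the members, so these calls are no test.

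The members differed from other genes in length, a property the rule did not use directly. The other genes were not matched to them for intensity, which was at least 58.9 for every member on untreated replicates 1 and 3. Their annotated genes had a median length of 10.4 kb (quartiles 4.26 and 25.2), against 21.3 kb (8.54 and 50.1) over the 11083 named genes above noise with a length in RefSeq. The shortest was 0.409 kb and the longest, Marchf1, 855 kb. Members lay on 19 chromosomes, with 13 of the 81 on chromosome 7, which held 7.93% of all named genes above noise. Lengths and places are given as descriptions, with no test.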

How the data were processed

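RNA of 9 samples had been hybridized to Illumina bead arrays, and the deposited table gives linear intensities of 45281 probes, made with software not given in the sources used here. The deposited intensities were already background-subtracted and normalized between arrays as far as their values show, since 31.8% were below 0 and the upper quartiles differed by 0.347%. A further table of non-normalized signals has 9 columns that match no label of a single sample, and they were not used. Intensities were taken as log2(intensity + 50). Above noise means above the upper 0.05 tail of a noise distribution built by mirroring the negative values around 0. The platform annotation paired 34885 probes with 1 symbol, 18 with several and 10378 with none. Each gene was represented by its probe with the highest mean. All 81 members matched RefSeq, with 0 symbols changed.

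Groups followed the labels. A linear model per feature (limma 3.58.1, R 4.3.3, with lmFit and eBayes, 6 residual degrees of freedom, 2 for the fit of 5 arrays) was run over 14640 features, with Benjamini-Hochberg adjustment over all of them and two-sided tests. Deviations of same-numbered arrays from their group means correlated at 0.57, 0.52 and 0.24 between the untreated and 1 h groups. With the 2 h group they correlated between -0.79 and -0.34. In a group of 3, an array far from the others of its label shapes the deviations of all 3. These correlations therefore cannot show whether the numbers pair arrays, and the labels do not say. The main fit used no pairing, and a block on the number was run only as an alternative. Scripts were tested on simulated data. Members, lists and tests were chosen with earlier results of these data known. Genes named are members on a list, the 20 members with the largest 1 h difference, the 10 brightest, the 3 genes on either side of the threshold, the 6 with the most and the 6 with the least negative step from 1 h to 2 h and from untreated to 1 h on the replicate 2 arrays, and fixed check genes. Other members are named where a count leaves few exceptions or for their known role, after their values were seen. The number of arrays and the spread between arrays of a label limit the precision. Alternatives covered the offset, normalization, filter, probe rule, threshold, array weights, a replicate block and leaving out arrays.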

Additional observations from a re-analysis of the deposited data

How the results depend on the processing

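The number of genes that met the rule was 81, and it was 251 with an offset of 16, 48 with an offset of 100, 47 with probes of a gene averaged, 33 with a threshold of -1.0 and 225 with a threshold of -0.6. Leaving out 1 of the 4 arrays gave 70 to 136, highest without 1 h replicate 1. Members at least 0.8 lower on 1 h replicate 2 than on untreated replicate 2 numbered 2, and 7 with an offset of 16 or 1 with an offset of 100. The share over all genes was 2.64% with the offset of the rule and was not counted with the other offsets. Whether the counts of 7 and 1 differ from the background was therefore not tested. The 71 members lower on 2 h replicates 1 and 3 were 71 to 73 with 1 of those 4 arrays left out. With limma, members called were 0 in all 3 comparisons by labels and stayed at 0 to 0 when any 1 array was left out. With the replicate number as a block the count was also 0 in each comparison. It was 0 at 1 h too in a block fit of the untreated and 1 h arrays alone, added after seeing the data. There 771 of 14640 features had an unadjusted limma p under 0.05. These included 40 members, in the contrast that chose them, so that count is no test. The block changed no call. With array weights, which gave the 3 arrays labelled replicate 2 weights of 0.261 to 0.343, 76 members were called at 2 h (33.5% of features called). Without those 3 arrays, an alternative chosen after seeing the data, the calls were 81 for 1 h, 78 for 2 h and 45 for the step between them. Weights and left-out arrays come from the same values as the calls. The direction of the members' step from 1 h to 2 h depended on 2 h replicate 2: the median was 0.13 with 23 of 81 lower over all 9 arrays, -0.31 with 70 lower without that array, -0.25 with 59 lower with array weights and -0.40 with 63 lower without the 3 arrays. A probe's signal over background limits what the dimmest members can show.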
